A study of Danio rerio with 18 samples.

Results

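Hox cluster genes encode homeodomain transcription factors that stand side by side in the genome, in clusters with the letters A, B, C and D, and carry a paralogue number that follows their order along the cluster. They were taken here as every gene of the deposited table whose symbol, ignoring case, begins with hox, a cluster letter and a number. This gave 48 of the 25535 genes measured. There were 13 members of paralogues 1 to 4, 12 of paralogues 5 to 8 and 23 of paralogues 9 to 13. By letter there were 11 members of A, 15 of B, 15 of C and 7 of D.

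Poly(A)-selected RNA was sequenced with its strand kept, from 18 zebrafish (Danio rerio) libraries, each from a pool of 20 to 25 whole embryos. The 6 groups had 3 libraries each. At 72 hours post fertilisation (hpf) they were a her3 knockout line (genotype her3 -/-, titled her3_38aa) and WIK, a wild-type laboratory strain. At 24 hpf they were the same knockout line, WIK embryos given a her3 morpholino, WIK embryos given a mismatch morpholino as injection control, and WIK without injection. A morpholino is an antisense oligomer that blocks the splicing or translation of its target, and injection was done at the 1- to 4-cell stage. her3 codes for a repressor of the Hairy and Enhancer of split family. The knockout is 1 line whose background strain the labels do not give, so strain and allele cannot be told apart in a comparison of that line with WIK. Injected embryos were sampled at 24 hpf only. The embryos of 24 hpf were freed from the chorion before collection.

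As background, Hox proteins give cells of the head-to-tail axis their regional identity. Genes with low paralogue numbers are expressed from the hindbrain and pharyngeal arches backwards, those in the middle of the series in the anterior trunk and pectoral fin region, and those with the highest numbers in the posterior trunk, the tail bud and, for several of groups 9 to 13, the fin buds. Teleost fish had a further genome duplication, so most clusters exist as an a and a b copy. Hox proteins bind DNA together with the TALE-class homeodomain proteins of the Pbx, Meis and Pknox families, and retinoic acid, Fgf signals and the caudal-related Cdx proteins set where Hox genes are switched on.

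Values are read counts per 1000000 of an effective library size set by the authors (CPM). CPM is not corrected for gene length, so levels are compared between groups and never between genes. Differences are on the scale of log2(CPM + 0.5), which understates the change of low genes, and a gene is called when its adjusted p is under 0.05 over all 20738 genes tested. The libraries held 14214136 to 23135995 reads, and 3 reads corresponded to 0.122 to 0.255 CPM. All 48 members passed the filter on low values and had a read in every library. Replicates are separate pools, so p-values measure the spread between pools. In bulk RNA from whole embryos, fewer cells of a type and less RNA per cell cannot be told apart.

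In 4 groups 1 library stood apart from the other 2 when reads were compared over all genes, namely replicate 3 of the knockout line at 72 hpf, replicate 1 of the her3 morpholino, replicate 3 of the mismatch morpholino and replicate 1 of WIK at 24 hpf. This touches the Hox genes directly. Replicate 1 of the her3 morpholino was the highest of its 3 libraries for 45 of 48 members, replicate 1 of WIK at 24 hpf for 35, and replicate 3 of the mismatch morpholino was the lowest for 33. Replicate 3 of the knockout line at 72 hpf was the lowest for 32 members, including 22 of the 23 in paralogues 9 to 13. With CPM rescaled to the same sum in each library, replicate 1 of WIK at 24 hpf was the highest for 20 members and the lowest for 22, replicate 3 of the mismatch morpholino was the lowest for 43, replicate 1 of the her3 morpholino the highest for 44 and replicate 3 of the knockout line at 72 hpf the lowest for 26. The main member counts are also given without these 4 libraries.

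The targeted gene, her3 (ENSDARG00000076857), was read first as a check of the labels. At 72 hpf its level was 2.51, 1.96 and 1.97 CPM in the knockout-labelled libraries and 1.42, 1.22 and 1.42 CPM in WIK. At 24 hpf it was 22.2, 22.1 and 22.1 CPM in the knockout-labelled libraries, 41.8, 33.7 and 32.3 CPM in the her3 morpholino group, 7.87, 7.66 and 8.09 CPM in the mismatch morpholino group and 11.04, 9.24 and 9.82 CPM in WIK. The transcript was higher, and not reduced, in both the knockout-labelled and the her3 morpholino libraries, and a transcript level says nothing of the protein. Every direction below follows the labels.

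Some names carry a limit. The symbol list gives 33 of the members in capitals without an a or b copy. The copy was taken from the listed symbol for 15 members and from RefSeq gene names, where 1 name remained for that letter and number, for 23. For 10 members it could not be resolved, because HOXA11, HOXB5, HOXC6, HOXC12 and HOXC13 each stand for 2 Ensembl genes, which are printed with their identifiers. In RefSeq the span of 14 named members, among them hoxb3a, hoxc3a, hoxa3a and hoxd3a, overlaps other Hox genes of the same cluster, and how reads in shared stretches were counted is not given in the sources used here. Their values are uncertain for that reason.

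All 48 Hox genes had reads at both ages, but not all reached 1 CPM. hoxb1a had 0.229 to 0.691 CPM in the 6 libraries of 72 hpf and reached 1 CPM in the 12 libraries of 24 hpf only. HOXA11 (ENSDARG00000104162) had 0.870, 0.957 and 0.824 CPM in the knockout line at 72 hpf. In paralogues 1 to 4 the highest mean levels over the 18 libraries were those of hoxb3a, hoxa3a and hoxc3a. In paralogues 5 to 8 they were those of hoxb8a, HOXB5 (ENSDARG00000013057) and hoxc8a, and in paralogues 9 to 13 those of hoxb9a, hoxc9a and HOXA11 (ENSDARG00000007009). The order is by CPM and so also reflects transcript length.

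**Figure D1:**
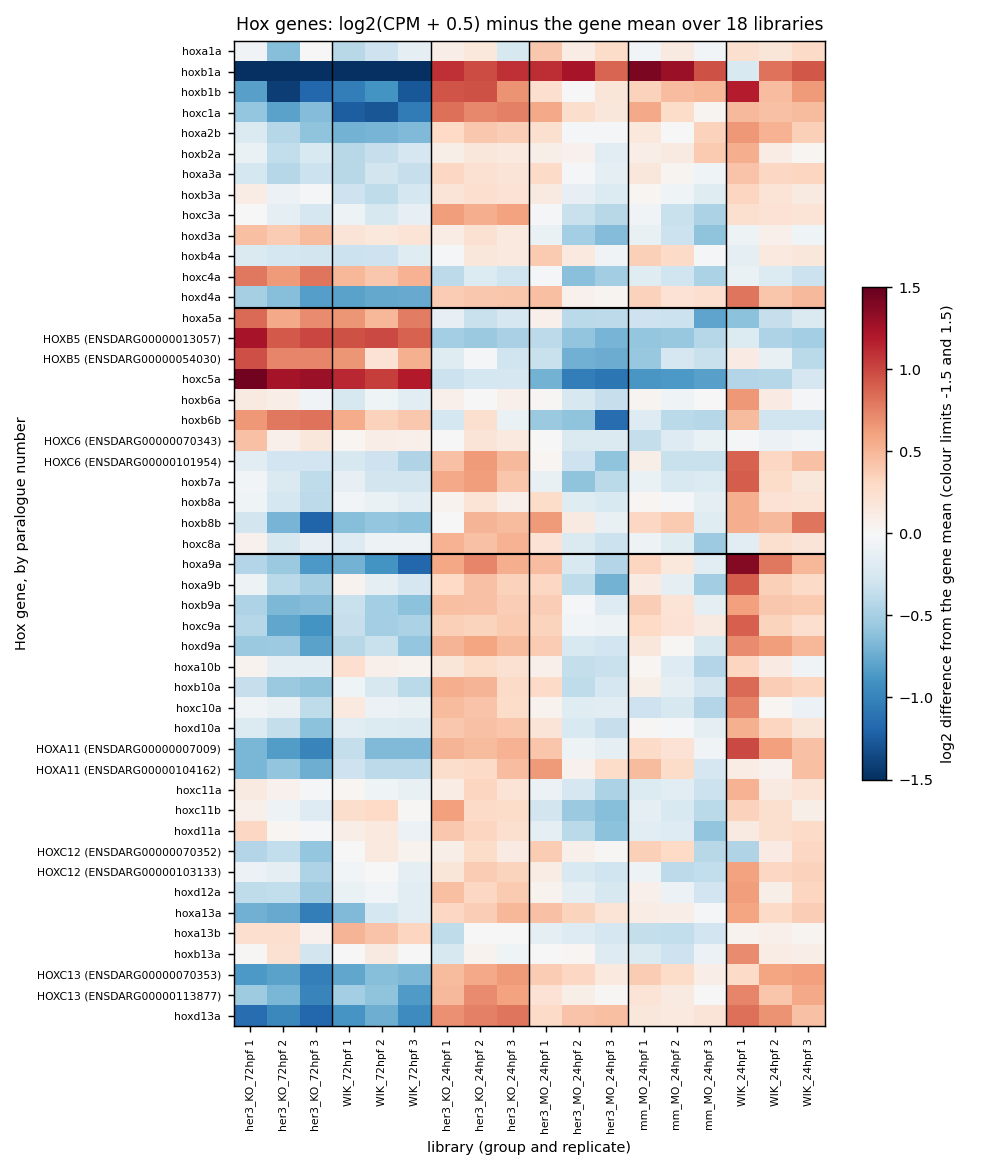
Heat map of the 48 Hox genes (rows, by paralogue number) in the 18 libraries (columns, by group and replicate). Colour is log2(CPM + 0.5) minus the gene's mean over all libraries, with colours cut at -1.5 and 1.5, and the main contrast runs between the 6 libraries of 72 hpf and the 12 of 24 hpf.

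The summed level of the members showed 2 patterns with age. For paralogues 1 to 4 the sum was 387 ± 24.7 CPM in the knockout line at 72 hpf and 340 ± 7.50 CPM in WIK at 72 hpf, against 542 ± 7.41 CPM in the knockout line at 24 hpf and 525 ± 30.8 CPM in WIK at 24 hpf (SD, n = 3 each). Paralogues 9 to 13 summed to 251 ± 25.4 CPM in the knockout line at 72 hpf and 285 ± 18.7 CPM in WIK at 72 hpf, against 459.9 ± 10.03 CPM in the knockout line at 24 hpf and 480.0 ± 66.0 CPM in WIK at 24 hpf. Paralogues 5 to 8 had higher mean sums at 72 hpf, with 341 ± 31.6 CPM in the knockout line and 317 ± 7.93 CPM in WIK at 72 hpf, against 288 ± 10.995 CPM in the knockout line and 295 ± 35.9 CPM in WIK at 24 hpf. For paralogues 5 to 8 the ages overlapped in WIK through replicate 1 of 24 hpf alone, and with CPM rescaled to equal sums they did not overlap in either line. These sums are descriptions and were not tested.

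**Figure D2:**
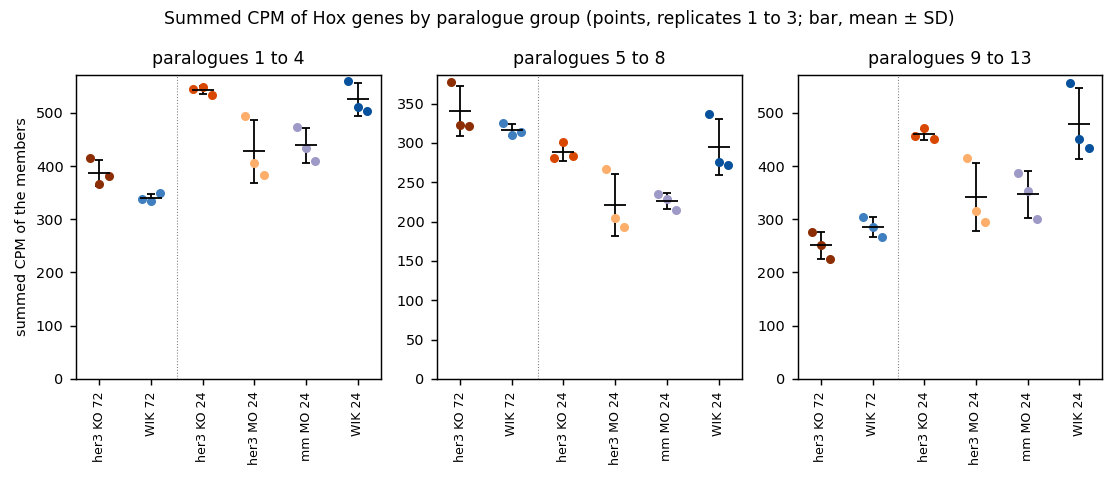
Summed CPM of the Hox genes of paralogues 1 to 4, 5 to 8 and 9 to 13 (panels) in each library (points) with mean ± SD of 3 libraries per group. The 3 libraries of each group at 72 hpf lie below those of the same line at 24 hpf in the outer panels, and the 2 injected groups lie below the other groups of 24 hpf, whereas with CPM rescaled to equal sums replicate 1 of the her3 morpholino lies above at least 1 WIK library in every panel.

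The comparison of 72 with 24 hpf asks how Hox expression differs between the end of embryogenesis and the segmentation-to-pharyngula stage, and could be made within the knockout line and within WIK. Within the knockout line 40 of the 48 members were called, 7 higher and 33 lower at 72 hpf. Of all genes tested 74.9% were called in that comparison, 37.1% higher and 37.8% lower. Within WIK 39 members were called, 7 higher and 32 lower, where 74.5% of all genes were called, 38.6% higher and 36% lower. The share of members called was thus near that of all genes, while the share lower was larger and the share higher smaller. With the 4 libraries that stood apart left out, 42 members were called in the knockout line and 40 in WIK, where 80.4% and 79.6% of all genes were called. The knockout line at 72 hpf lay wholly above 24 hpf for 8 members and wholly below for 34, against 40.2% and 42.1% of all genes. WIK did so for 8 and 32 members, against 38.7% and 35.2% of all genes. The median log2 difference of the members was -0.61 in the knockout line and -0.53 in WIK, against -0.04 and 0.02 over all genes.

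When CPM was rescaled to the same sum in each library, the median of all genes moved to 0.08 in the knockout line and 0.17 in WIK. The split of called members then became 9 higher and 29 lower in the knockout line and 9 higher and 23 lower in WIK. Relative to the median of all genes the members' median was -0.57 and -0.56 as deposited and -0.56 and -0.55 after rescaling, with the knockout line first.

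The direction differed between the paralogue groups, with most members lower in paralogues 1 to 4 and 9 to 13 and a split in paralogues 5 to 8. Of paralogues 1 to 4, 10 of 13 fell and 1 rose in the knockout line, and 11 fell and 1 rose in WIK. Of paralogues 5 to 8, 5 rose and 5 fell of 12 in each. Of paralogues 9 to 13, 18 of 23 fell and 1 rose in the knockout line, and 16 fell and 1 rose in WIK. When the 4 libraries that stood apart were left out, 10, 5 and 19 fell and 2, 5 and 1 rose in the knockout line, and 11, 6 and 15 fell and 2, 5 and 1 rose in WIK, from the lowest to the highest numbers. The medians of the log2 difference were -0.58, 0.06 and -0.82 in the knockout line and -0.56, -0.05 and -0.58 in WIK, from the lowest to the highest paralogue numbers.

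The 2 lines were called alike for most members. In both lines 7 members rose and 29 fell, no member was called in opposite directions, 3 were called in WIK only, 4 in the knockout line only and 5 in neither. A call in 1 line only does not show a difference between lines, and the test of that difference called 0 members. The 5 members called in neither were hoxd3a, HOXC6 (ENSDARG00000070343), hoxa10b, hoxd11a and hoxb13a, which were named after their values were seen. With the 4 libraries that stood apart left out, 8 members rose and 30 fell in both lines and 4 were called in neither, as hoxd3a then rose in both (0.25 in the knockout line and 0.18 in WIK, adjusted p = 0.0059 and 0.039) and hoxa10b fell in the knockout line (-0.27, adjusted p = 0.014). With rescaled CPM 9 rose and 22 fell in both lines and 9 were called in neither.

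**Figure D3:**
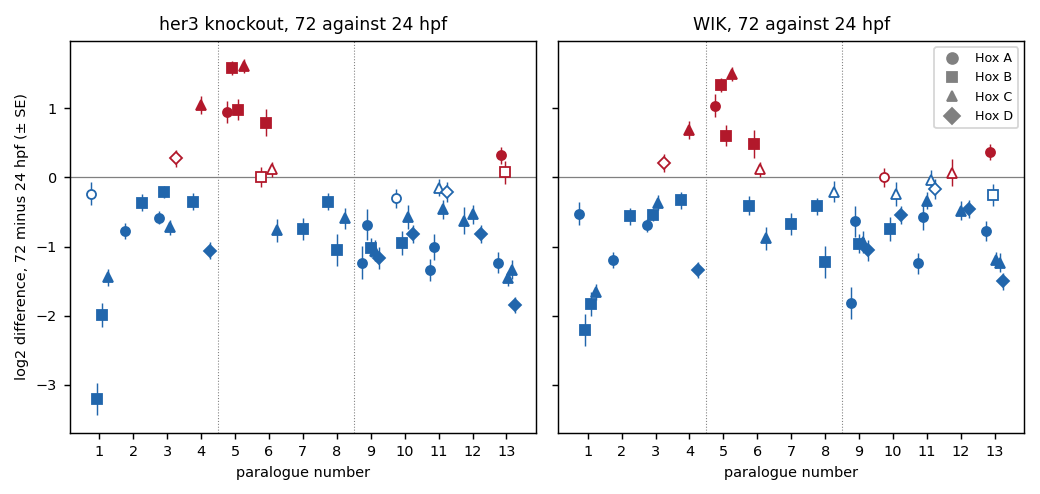
Log2 difference between 72 and 24 hpf (± SE) of each Hox gene against its paralogue number, with the knockout line in the left panel and WIK in the right. Filled symbols are called genes, red higher and blue lower at 72 hpf, the symbol gives the cluster letter, and the filled red symbols stand at numbers 4, 5, 6 and 13.

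Among the hindbrain genes, hoxb1a had the largest drop. It gives the fourth rhombomere, the source of facial branchiomotor neurons, its identity. Its level was 0.358, 0.335 and 0.229 CPM in the knockout line and 0.537, 0.691 and 0.559 CPM in WIK at 72 hpf, against 7.10, 6.53 and 7.10 CPM in the knockout line and 2.55, 5.76 and 6.29 CPM in WIK at 24 hpf. Neither pair of ages overlapped, and the low WIK value of 24 hpf, 2.55 CPM, was that of replicate 1. At 72 hpf the values rest on 7, 7 and 5 reads in the knockout line and 11, 13 and 11 reads in WIK, so their counting error is large. The gene passed the filter on low values only through the libraries of 24 hpf, where it is high. The log2 difference was -3.20 ± 0.23 in the knockout line (adjusted p = 1.7e-09) and -2.21 ± 0.23 in WIK (adjusted p = 1.8e-07). Its size depends on the pseudocount, and over the settings it ran from -4.42 to -2.60 in the knockout line and from -2.97 to -1.81 in WIK.

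hoxb1b, which acts in hindbrain segmentation during gastrulation, had 10.4, 6.70 and 8.01 CPM in the knockout line and 8.83, 9.78 and 7.47 CPM in WIK at 72 hpf. At 24 hpf it had 36.2, 36.8 and 30.2 CPM in the knockout line and 42.9, 26.04 and 29.4 CPM in WIK. The ages did not overlap in either line, with log2 differences of -1.99 ± 0.17 (adjusted p = 1.9e-08) in the knockout line and -1.83 ± 0.17 (adjusted p = 5.5e-08) in WIK. hoxc1a, a further paralogue 1 gene, had 20.2, 17.1 and 19.2 CPM in the knockout line and 12.6, 12.2 and 14.4 CPM in WIK at 72 hpf, against 54.3, 50.4 and 51.4 CPM in the knockout line and 42.7, 41.5 and 42.3 CPM in WIK at 24 hpf. It fell in both lines, with log2 differences of -1.45 ± 0.12 in the knockout line and -1.66 ± 0.12 in WIK (adjusted p = 1.3e-08 and 2.3e-09). The fourth paralogue 1 gene, hoxa1a, was called lower in WIK (-0.53 ± 0.17, adjusted p = 0.0090) and not in the knockout line (-0.24 ± 0.17, adjusted p = 0.20), and its WIK call was lost with rescaled CPM (adjusted p = 0.068).

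hoxa2b, which specifies the second pharyngeal arch, fell with log2 differences of -0.77 ± 0.11 in the knockout line and -1.20 ± 0.11 in WIK. The paralogue 3 genes, expressed in the caudal hindbrain and posterior arches, moved less. hoxb3a, the member with the highest mean CPM, had 117, 102 and 107 CPM in the knockout line and 87.3, 82.95 and 90.5 CPM in WIK at 72 hpf, against 124, 129.7 and 126 CPM in the knockout line and 136, 125 and 119.5 CPM in WIK at 24 hpf. Its log2 difference was -0.22 ± 0.09 in the knockout line (adjusted p = 0.033) and -0.54 ± 0.09 in WIK (adjusted p = 2.8e-05), and the first call was lost in 6 of the settings, with an adjusted p of up to 0.46. hoxa3a (-0.58 in the knockout line and -0.70 in WIK) and hoxc3a (-0.72 and -0.37) fell in both, the WIK call of hoxc3a being lost with rescaled CPM (adjusted p = 0.17), and hoxd3a was not called (0.27 and 0.21).

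Paralogue 4 genes, which are expressed from the caudal hindbrain backwards, split. hoxd4a fell, with 11.5, 10.3 and 9.02 CPM in the knockout line and 9.22, 9.46 and 9.50 CPM in WIK at 72 hpf, against 21.5, 21.9 and 22.03 CPM in the knockout line and 29.04, 22.02 and 23.1 CPM in WIK at 24 hpf. hoxc4a rose, with 30.8, 27.7 and 31.03 CPM in the knockout line and 25.1, 23.5 and 25.5 CPM in WIK at 72 hpf, against 13.3, 15.3 and 14.3 CPM in the knockout line and 16.5, 15.3 and 14.02 CPM in WIK at 24 hpf. Neither gene overlapped between ages. The log2 differences were -1.06 ± 0.12 and -1.34 ± 0.12 for hoxd4a and 1.04 ± 0.13 and 0.68 ± 0.13 for hoxc4a, in the knockout line and in WIK.

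All 4 members of paralogue 5 rose in both lines. Genes of this number are expressed in the anterior trunk and act, in zebrafish through hoxb5a and hoxb5b, in placing the pectoral fin. hoxc5a had 39.8, 34.6 and 35.5 CPM in the knockout line and 31.7, 29.7 and 32.9 CPM in WIK at 72 hpf, against 11.2, 11.7 and 11.9 CPM in the knockout line and 10.4, 10.4 and 11.8 CPM in WIK at 24 hpf. HOXB5 (ENSDARG00000013057) had 79.3, 63.6 and 67.3 CPM in the knockout line and 65.1, 66.4 and 62.1 CPM in WIK at 72 hpf, against 23.3, 22.5 and 23.5 CPM in the knockout line and 28.9, 23.9 and 23.1 CPM in WIK at 24 hpf. Both genes stood well above every library of 24 hpf in all 6 libraries of 72 hpf. The log2 difference of hoxc5a was 1.61 ± 0.10 in the knockout line and 1.49 ± 0.10 in WIK (adjusted p = 3.3e-10 and 9.4e-10). For HOXB5 (ENSDARG00000013057) it was 1.57 ± 0.10 and 1.34 ± 0.10, for HOXB5 (ENSDARG00000054030) 0.98 ± 0.15 and 0.60 ± 0.15, and for hoxa5a 0.95 ± 0.16 and 1.04 ± 0.16, in the knockout line and in WIK.

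In the same stretch of the series other members fell or were not called. hoxb6b had 18.2, 20.2 and 20.5 CPM in the knockout line and 17.1, 14.7 and 15.3 CPM in WIK at 72 hpf, against 9.45, 13.6 and 10.6 CPM in the knockout line and 16.05, 9.24 and 9.21 CPM in WIK at 24 hpf. The ages did not overlap in the knockout line, and in WIK replicate 1 of 24 hpf, 16.05 CPM, lay within the range of 72 hpf. It rose by 0.79 in the knockout line and 0.48 in WIK (adjusted p = 0.0018 and 0.038), and the WIK call was lost in 6 settings, 5 of them with 1 library left out, with an adjusted p of up to 0.15. hoxb7a (-0.75 and -0.68), hoxb8b (-1.05 and -1.22) and hoxb8a (-0.35 and -0.42), trunk genes of the B clusters, fell in the knockout line and in WIK. hoxc8a fell in the knockout line (-0.59 ± 0.15) and was not called in WIK (-0.21 ± 0.15, adjusted p = 0.21). It fell in WIK too (-0.34, adjusted p = 0.0014) without the 4 libraries that stood apart.

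Among paralogues 9 to 13, which pattern the posterior trunk, tail and fins, the largest drop in the knockout line was that of hoxd13a, a gene of the distal fin skeleton, and in WIK that of hoxa9a, a posterior trunk gene. hoxd13a had 1.84, 2.15 and 1.78 CPM in the knockout line and 2.29, 2.60 and 2.19 CPM in WIK at 72 hpf, against 7.85, 8.24 and 8.54 CPM in the knockout line and 8.66, 7.76 and 6.50 CPM in WIK at 24 hpf. The ages lay far apart in both lines, with log2 differences of -1.85 ± 0.12 (adjusted p = 4.4e-10) in the knockout line and -1.503 ± 0.12 (adjusted p = 6.3e-09) in WIK. hoxa9a had 10.1, 9.28 and 7.41 CPM in the knockout line and 8.30, 7.17 and 5.84 CPM in WIK at 72 hpf, against 20.9, 23.2 and 20.4 CPM in the knockout line and 36.6, 24.2 and 19.7 CPM in WIK at 24 hpf, where replicate 1 of WIK was high. The ages did not overlap, and its log2 difference was -1.23 ± 0.23 in the knockout line and -1.81 ± 0.23 in WIK.

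HOXA11 (ENSDARG00000007009), of a paralogue known from mouse for shaping the forearm segment of the limb, had 14.2, 12.8 and 11.4 CPM in the knockout line and 18.01, 14.5 and 14.4 CPM in WIK at 72 hpf, against 33.2, 32.5 and 33.4 CPM in the knockout line and 46.6, 35.8 and 31.8 CPM in WIK at 24 hpf. The ages did not overlap, and the log2 differences were -1.34 ± 0.16 and -1.24 ± 0.16. Both HOXC13 genes also fell, with log2 differences of -1.46 and -1.19 for ENSDARG00000070353 and -1.34 and -1.23 for ENSDARG00000113877, in the knockout line and in WIK. Of the paralogue 9 genes, all 5 fell in both lines. hoxd9a differed by -1.16 and -1.06, hoxc9a by -1.06 and -0.94 and hoxb9a by -1.02 and -0.96, with the knockout line first.

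Duplicate copies did not all move alike. hoxa13a and hoxa13b, which both act in the fin rays, went in opposite directions. hoxa13a had 2.56, 2.49 and 1.97 CPM in the knockout line and 2.68, 3.72 and 4.01 CPM in WIK at 72 hpf, against 5.75, 6.05 and 6.63 CPM in the knockout line and 7.13, 5.65 and 6.04 CPM in WIK at 24 hpf. hoxa13b had 5.83, 5.84 and 5.08 CPM in the knockout line and 7.08, 6.64 and 6.15 CPM in WIK at 72 hpf, against 3.60, 4.82 and 4.81 CPM in the knockout line and 5.01, 5.12 and 4.96 CPM in WIK at 24 hpf. The ages overlapped for neither copy. hoxa13a fell, with log2 differences of -1.23 ± 0.15 in the knockout line and -0.78 ± 0.15 in WIK, whereas hoxa13b rose by 0.32 ± 0.12 (adjusted p = 0.024) and 0.36 ± 0.12 (adjusted p = 0.011). The knockout-line call of hoxa13b was lost in 4 settings, with an adjusted p of up to 0.15.

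HOXC6 showed no such opposite calls. ENSDARG00000070343 was not called (0.12 ± 0.11 in the knockout line and 0.12 ± 0.11 in WIK), while ENSDARG00000101954 fell (-0.77 ± 0.17 and -0.88 ± 0.17). hoxb6a was not called in the knockout line (0.00 ± 0.14) and fell in WIK (-0.41 ± 0.14, adjusted p = 0.014), where its copy hoxb6b rose. The WIK difference of hoxb6a was -0.21 (adjusted p = 0.030) without the 4 libraries that stood apart. The b copy hoxc11b fell in the knockout line (-0.46 ± 0.14) and was not called in WIK (-0.03 ± 0.14). The a copy hoxc11a was not called in the knockout line (-0.15 ± 0.12), and its call in WIK (-0.34 ± 0.12) was lost without the 4 libraries (-0.22, adjusted p = 0.054). The differences between copies were not tested.

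At 72 hpf the knockout line was compared with WIK to see whether the her3 -/- genotype touches the Hox series late. Of the 48 members 3 were called, 2 higher and 1 lower, where 10.8% of all genes were called, 5.11% higher and 5.71% lower. The 2 that rose were anterior genes and the 1 that fell was a posterior gene. These 3 calls are too few to show a direction along the series. hoxc1a had 20.2, 17.1 and 19.2 CPM in the knockout-labelled libraries, against 12.6, 12.2 and 14.4 CPM in WIK. The groups did not overlap, and the log2 difference was 0.51 ± 0.12 (adjusted p = 0.012). hoxb3a had 117, 102 and 107 CPM in the knockout-labelled libraries, against 87.3, 82.95 and 90.5 CPM in WIK, again without overlap, a log2 difference of 0.32 ± 0.09 (adjusted p = 0.023). hoxa13a had 2.56, 2.49 and 1.97 CPM in the knockout-labelled libraries, against 2.68, 3.72 and 4.01 CPM in WIK, with every knockout value below every WIK value and a log2 difference of -0.48 ± 0.15 (adjusted p = 0.046).

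None of these 3 calls held under every alternative. hoxc1a lost its call without replicate 1 of the knockout line (adjusted p = 0.054) and without replicate 2 of WIK (0.059). hoxb3a lost it without replicates 1 (0.11) or 3 (0.055) of the knockout line and without replicates 1 (0.062) or 2 (0.10) of WIK. hoxa13a was called in 3 of the 14 alternatives, and its adjusted p reached 0.20. Without the 4 libraries that stood apart 7 members were called, where 22.4% of all genes were called. Of the 7 members 6 were higher (hoxc1a, hoxb3a, hoxa2b, hoxd3a, hoxb6a and hoxa9a) and 1 lower (HOXC12, ENSDARG00000070352). The posterior calls then went both ways, with hoxa9a higher (0.43, adjusted p = 0.025) and HOXC12 (ENSDARG00000070352) lower (-0.47, adjusted p = 0.0016). hoxa13a was not called there. The knockout library left out was the lowest of its group for 32 of 48 members. Leaving it out raises the difference by itself for most members, so that count cannot show an effect of the knockout.

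The signs of the difference at 72 hpf differed between the paralogue groups, although few members passed the test. In paralogues 1 to 4, 11 of 13 members had a positive difference, and in paralogues 5 to 8, 10 of 12. In paralogues 9 to 13, 20 of 23 had a negative one. Over all genes tested 48.8% were positive and 51.2% negative. By number, all 4 members of paralogue 3, all 3 of paralogue 4, all 4 of paralogue 5 and all 4 of paralogue 6 were positive, and all 4 of paralogue 10, all 3 of paralogue 12 and all 6 of paralogue 13 were negative. The medians were 0.10, 0.10 and -0.21 from the lowest to the highest numbers. The knockout values lay wholly above WIK for 5, 4 and 0 members of the 3 groups, and wholly below for 1, 0 and 9. Of all genes tested 17.1% lay wholly above and 18.6% wholly below.

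Over the 14 alternatives the number with a positive sign ran from 8 to 12 of 13 in paralogues 1 to 4 and from 7 to 11 of 12 in paralogues 5 to 8, and the number with a negative sign from 18 to 21 of 23 in paralogues 9 to 13. The lowest counts in the first 2 groups came without replicate 1 of the knockout line, with 8 and 7, and for paralogues 1 to 4 also without replicate 1 of WIK, with 8. Replicate 1 of the knockout line was the highest of its group for 36 of 48 members, among them 10 of 13 and 11 of 12 in the first 2 groups. Without it the medians were 0.04, 0.03 and -0.26 from the lowest to the highest numbers, so the positive differences depended largely on that library. Without replicate 3 of the knockout line, the library that stood apart, the signs were 9 of 13 positive, 11 of 12 positive and 18 of 23 negative. Members of a cluster share their chromosome neighbourhood, and the RefSeq spans of 14 named members overlap other Hox genes, so some may share reads. The counts are therefore not treated as over independent genes.

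Values of 3 further genes, all with negative differences and chosen after their values were seen, are given as examples. These examples do not give the typical size of the differences, whose medians stand above. HOXC12 (ENSDARG00000070352), of a paralogue expressed in the tail, had 9.57, 10.1 and 8.65 CPM in the knockout-labelled libraries, against 13.1, 14.6 and 13.7 CPM in WIK. The groups did not overlap, but the log2 difference of -0.53 ± 0.20 was not called (adjusted p = 0.11). hoxd12a had 8.34, 8.42 and 7.41 CPM in the knockout-labelled libraries, against 10.2, 10.7 and 9.71 CPM in WIK (-0.32 ± 0.13, adjusted p = 0.15). hoxb1a, the 1 anterior member wholly below WIK, had a log2 difference of -0.44 ± 0.23 (adjusted p = 0.28) at the low read counts given above.

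At 24 hpf the knockout line and WIK were compared to see the same early. Only hoxc3a of the 48 members was called, where 12.6% of all genes were called, 6.01% higher and 6.63% lower. hoxc3a is a paralogue 3 gene whose span overlaps hoxc4a, hoxc5a, hoxc6a, hoxc8a and hoxc9a in RefSeq. It had 71.5, 67.6 and 70.2 CPM in the knockout-labelled libraries, against 54.6, 53.6 and 52.95 CPM in WIK. The groups did not overlap, and the log2 difference was 0.37 ± 0.11 (adjusted p = 0.035). The call was lost without any 1 of the 6 libraries, with adjusted p-values of up to 0.11. The next by unadjusted p were hoxc8a (0.40 ± 0.15, adjusted p = 0.086) and hoxc1a (0.30 ± 0.12, adjusted p = 0.12), which were not called.

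hoxc8a, a trunk gene, had 44.05, 41.6 and 44.1 CPM in the knockout-labelled libraries, against 27.2, 36.3 and 35.1 CPM in WIK, without overlap and with the lowest WIK value in replicate 1. Without the 4 libraries that stood apart 5 members were called, all higher (hoxc1a, hoxc3a, hoxb7a, hoxc8a and hoxc10a), where 18.8% of all genes were called. The WIK library left out was the highest of its group for 35 of 48 members. Leaving it out raises the difference by itself for most members, so that count cannot show an effect of the knockout. At 24 hpf the signs did not follow the paralogue number in the fit of all libraries, and they are not given for the alternatives. Positive and negative differences numbered 7 and 6 in paralogues 1 to 4, 6 and 6 in paralogues 5 to 8, and 11 and 12 in paralogues 9 to 13. The difference of the knockout effect between 72 and 24 hpf was tested for every member, and 0 were called where 4.64% of all genes were, 2.5% higher and 2.15% lower. Members hoxa2b and hoxc10a were called without the 4 libraries that stood apart, where 10.8% of all genes were. The lowest adjusted p over all libraries was that of hoxb1a (-0.99 ± 0.33, adjusted p = 0.096).

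**Figure D4:**
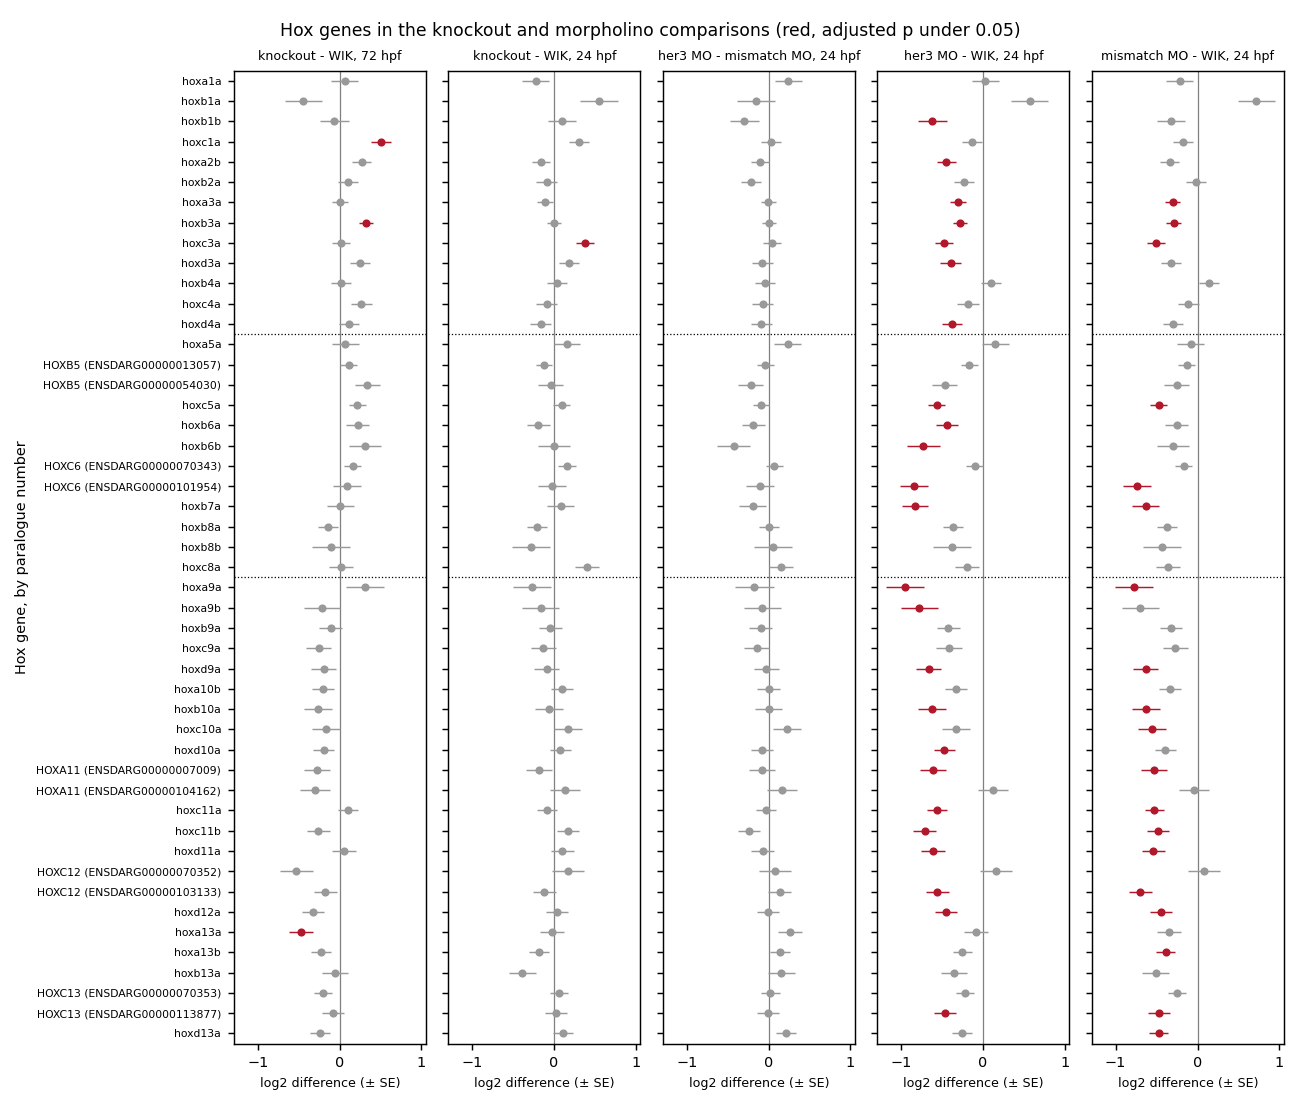
Log2 difference (± SE) of each Hox gene in the knockout and morpholino comparisons (panels), with genes in order of paralogue number. Red marks an adjusted p under 0.05, which 1 gene reached in the knockout line at 24 hpf, 3 at 72 hpf, 0 between the morpholinos, 24 between the her3 morpholino and WIK and 19 between the mismatch morpholino and WIK.

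The her3 morpholino was compared with the mismatch morpholino, which controls for injection. Of the 48 members 0 were called by limma and 0 by voom on the recovered reads, while limma called 3.35% of all genes, 1.45% higher and 1.9% lower. An unadjusted p under 0.05 in limma was reached by 1 member (hoxb6b) and by 3157 of all 20738 genes tested. hoxb6b had 7.59, 7.39 and 4.90 CPM in the her3 morpholino group, against 9.95, 8.54 and 8.35 CPM in the mismatch morpholino group. The groups did not overlap, and the log2 difference was -0.43 ± 0.20 (adjusted p = 0.32). The next by unadjusted p were hoxd13a (0.22 ± 0.12) and hoxa13a (0.26 ± 0.15), both with an adjusted p of 0.43. hoxd13a had 5.81, 6.44 and 6.57 CPM in the her3 morpholino group, against 5.30, 5.25 and 5.41 CPM in the mismatch morpholino group, without overlap. Without the 4 libraries that stood apart, which leaves 2 in each of these groups, 11 members were called, all lower with the her3 morpholino, where 12.9% of all genes were called. The her3 morpholino library left out was the highest of its group for 45 of 48 members. The mismatch morpholino library left out was the lowest of its group for 33. Leaving them out lowers the difference by itself, so that count cannot show an effect of the her3 morpholino.

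Both injected groups stood lower than uninjected WIK for most Hox members. With the her3 morpholino 24 of the 48 members fell and 0 rose, where 14.5% of all genes were called, 6.71% higher and 7.74% lower. With the mismatch morpholino 19 fell and 0 rose, where 10.5% of all genes were called, 4.99% higher and 5.48% lower. The median log2 difference of the members was -0.39 with the her3 morpholino and -0.35 with the mismatch morpholino, against 0.01 and 0.03 over all genes. Both comparisons use the same 3 WIK libraries, so their likeness is not independent. Injection and the handling that goes with it cannot be told apart here.

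By number, the members that fell with the her3 morpholino were 7 of 13 in paralogues 1 to 4, 5 of 12 in paralogues 5 to 8 and 12 of 23 in paralogues 9 to 13, among them 6 of the 7 of cluster D. With the mismatch morpholino they were 3 of 13, 3 of 12 and 13 of 23. The largest drop in both was that of hoxa9a, with 19.3, 11.7 and 10.1 CPM in the her3 morpholino group and 17.5, 15.5 and 12.3 CPM in the mismatch morpholino group, against 36.6, 24.2 and 19.7 CPM in WIK. Every injected library lay below every WIK library, and the injected groups overlapped each other. The log2 difference from WIK was -0.95 ± 0.23 with the her3 morpholino (adjusted p = 0.016) and -0.78 ± 0.23 with the mismatch morpholino (adjusted p = 0.044). The difference with the mismatch morpholino was -0.40 and not called without the 4 libraries that stood apart (adjusted p = 0.069), with HOXC12 (ENSDARG00000103133) then lowest at -0.56, and with rescaled CPM it was -0.66 and not called (adjusted p = 0.062).

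hoxc5a, the anterior trunk gene that rose with age, had 8.52, 6.69 and 6.44 CPM in the her3 morpholino group and 7.54, 7.62 and 7.83 CPM in the mismatch morpholino group, against 10.4, 10.4 and 11.8 CPM in WIK. Every injected library lay below every WIK library, and the log2 differences were -0.57 ± 0.10 (adjusted p = 0.0031) and -0.47 ± 0.10 (adjusted p = 0.0080). hoxc3a had 45.6, 36.5 and 34.5 CPM in the her3 morpholino group and 44.2, 36.5 and 32.9 CPM in the mismatch morpholino group, against 54.6, 53.6 and 52.95 CPM in WIK, also without overlap. Its log2 differences were -0.47 ± 0.11 and -0.51 ± 0.11, whereas it was higher in the knockout line. The difference between the knockout effect at 24 hpf and the effect of the her3 over the mismatch morpholino was a contrast chosen after results were seen. It called 0 members where 7.66% of all genes were called, 3.86% higher and 3.8% lower. Without the 4 libraries that stood apart it called 11, all higher, where 18.1% of all genes were called. Leaving out the highest her3 morpholino library and the lowest mismatch morpholino library raises this contrast by itself for most members. That count therefore cannot show that the effects differ. hoxc11a, a posterior gene, had 9.88, 8.74 and 7.41 CPM in the her3 morpholino group and 9.01, 9.25 and 8.30 CPM in the mismatch morpholino group, against 15.3, 11.6 and 12.2 CPM in WIK, and its log2 differences were -0.56 ± 0.12 and -0.53 ± 0.12.

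The other members with a large drop were the following, with the her3 morpholino value first. HOXC6 (ENSDARG00000101954) differed from WIK by -0.84 and -0.74, hoxb7a by -0.83 and -0.63, and hoxd9a by -0.66 and -0.64. hoxb10a differed by -0.63 and -0.63, hoxc11b by -0.71 and -0.48, hoxd11a by -0.61 and -0.54, and HOXA11 (ENSDARG00000007009) by -0.62 and -0.53. All of these were called in both comparisons, of which hoxc11b (-0.35) and HOXA11 (-0.28) lost the call with the mismatch morpholino without the 4 libraries that stood apart. hoxa9b (-0.78), hoxb6b (-0.73) and hoxb1b (-0.62) were called with the her3 morpholino and not with the mismatch morpholino, and hoxc10a (-0.56) and hoxd13a (-0.48) the other way round, which does not show that the injected groups differ. HOXC12 (ENSDARG00000103133) was called in both, at -0.56 and -0.70.

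Some members did not lie lower, among them hoxb4a and HOXC12 (ENSDARG00000070352), whose mean CPM was above that of WIK in both injected groups. hoxb1a was a further one, with 7.21, 7.88 and 6.04 CPM in the her3 morpholino group and 9.01, 8.25 and 6.44 CPM in the mismatch morpholino group, against 2.55, 5.76 and 6.29 CPM in WIK. Its differences of 0.57 ± 0.23 (adjusted p = 0.10) and 0.72 ± 0.23 (adjusted p = 0.057) were not called, and the WIK value of 2.55 CPM was that of the library that stood apart.

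The counts against WIK depended on the libraries and on the fit. When the fit held just the compared groups, 0 members were called in either comparison. Rescaling CPM to equal sums moved the median of all genes to 0.17 and 0.13 and left 9 and 7 members called, all lower. Relative to the median of all genes the members' median was then -0.38 with the her3 morpholino and -0.36 with the mismatch morpholino, against -0.40 and -0.37 as deposited. With the her3 morpholino 32 members fell when the 4 libraries that stood apart were left out, where 20.1% of all genes were called. Among these was replicate 1 of the her3 morpholino, the highest of its group for 45 of 48 members. Replicate 1 of WIK, the highest of its group for 35, was also among them. Leaving them out lowers both groups for most members, so that count depends on the choice of libraries. With the mismatch morpholino 12 then fell and hoxb1a rose, where 16.4% of all genes were called. Without replicate 1 of WIK 8 and 7 members were called. Without replicate 2 or replicate 3 of the her3 morpholino 5 were called, and without replicates 1, 2 or 3 of the mismatch morpholino 12, 6 and 10. A fit with just the compared groups rests on fewer libraries. The share of all genes called is not given for that fit, for rescaled CPM or with 1 library left out. Those counts therefore cannot show a change particular to the Hox genes.

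**Figure D5:**
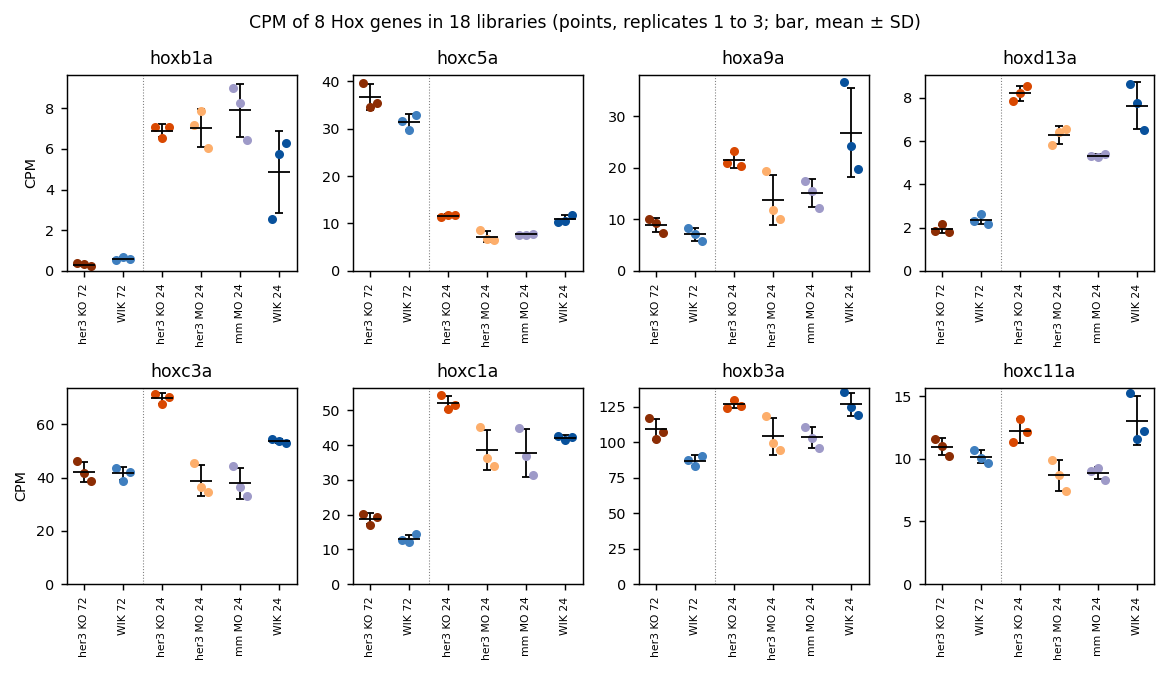
CPM of 8 Hox genes in each of the 18 libraries (points) with mean ± SD of the 3 libraries of a group. hoxb1a, hoxc1a, hoxa9a and hoxd13a are lower and hoxc5a is higher in the 2 groups of 72 hpf than in the 4 groups of 24 hpf, judged by group means, and hoxc3a is lower in both injected groups than in the other groups of 24 hpf.

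The TALE cofactors that bind DNA with Hox proteins were read beside them, with 12 of 14 genes asked for found and tested. With age 8 rose and 4 fell in the knockout line, and 7 rose and 4 fell in WIK. All 12 genes were thus called in the knockout line and 11 in WIK, where 74.9% and 74.5% of all genes were called, and 37.1% and 38.6% were higher. PBX3 (ENSDARG00000013615) averaged 150.5 ± 14.6 CPM in the knockout line and 116 ± 10.97 CPM in WIK at 72 hpf, against 7.92 ± 0.291 CPM in the knockout line and 15.9 ± 1.81 CPM in WIK at 24 hpf (SD, n = 3 each). Its log2 difference was 4.16 ± 0.12 and 2.83 ± 0.12. Of the genes that fell, meis3, a hindbrain cofactor, differed by -1.34 ± 0.10 in the knockout line and -1.48 ± 0.10 in WIK.

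Between the knockout line and WIK the same cofactor list gave 1 called gene of 12 at each age, where 12.6% of all genes were called at 24 hpf and 10.8% at 72 hpf. Over the settings the number called higher at 72 hpf ran from 0 to 5. PBX3 was lower in the knockout line at 24 hpf (-0.96 ± 0.12, adjusted p = 5.0e-05), and meis2b was higher at 72 hpf (0.34 ± 0.10, adjusted p = 0.045). PBX3 averaged 9.07 ± 0.547 CPM in the her3 morpholino group and 6.12 ± 1.17 CPM in the mismatch morpholino group, and was higher with the her3 morpholino (0.54 ± 0.12, adjusted p = 0.018) while both were below WIK (-0.78 ± 0.12 and -1.32 ± 0.12). The knockout effect on PBX3 differed between ages (1.33 ± 0.17, adjusted p = 0.00023).

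The retinoic acid and caudal list, genes that act upstream of Hox transcription, had 22 tested genes of 23. With age 13 fell and 5 rose in the knockout line, and 14 fell and 3 rose in WIK, where 37.8% and 36% of all genes were lower, with medians of -0.65 and -0.77. cdx4, a caudal-related activator of trunk and tail Hox genes, averaged 0.467 ± 0.118 CPM in the knockout line and 0.327 ± 0.180 CPM in WIK at 72 hpf, against 31.5 ± 3.69 CPM in the knockout line and 19.02 ± 2.07 CPM in WIK at 24 hpf, log2 differences of -5.05 ± 0.17 and -4.58 ± 0.17. At 72 hpf cdx4 rests on few reads, as 3 reads corresponded to 0.122 to 0.255 CPM, so the size of its difference depends on the pseudocount. CYP26A1, which breaks down retinoic acid, fell (-1.68 in the knockout line and -1.97 in WIK), and so did ALDH1A2, which makes it (-0.74 and -0.87). cdx1b, a further caudal-related gene, rose by 1.76 and 1.74.

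Between the knockout line and WIK at 24 hpf 3 of the 22 rose, NR6A1 (ENSDARG00000101508), a nuclear receptor (1.17 ± 0.35), cdx4 (0.71 ± 0.17) and CRABP2 (ENSDARG00000073978), a retinoic acid carrier (0.19 ± 0.06), and cdx1b fell (-0.81 ± 0.15). Of all genes 12.6% were called there, and over the settings 0 to 3 of the list were higher and 1 lower. At 72 hpf cdx1b again fell (-0.80 ± 0.15), with DHRS3 (ENSDARG00000044982), a retinal reductase (-0.62 ± 0.17), while RDH10 (ENSDARG00000058730), a retinol dehydrogenase (0.33 ± 0.07), and raraa, a retinoic acid receptor (0.33 ± 0.10), rose. There 10.8% of all genes were called, and over the settings 1 to 4 of the list were higher and 1 to 3 lower. Between the her3 and mismatch morpholinos ALDH1A2 fell (-0.87 ± 0.17, adjusted p = 0.0071), at 25.4 ± 2.37 CPM in the her3 morpholino group, against 46.8 ± 3.23 CPM in the mismatch morpholino group, and so did RDH10 (ENSDARG00000012369) (-0.52 ± 0.13). Of all genes 3.35% were called between the morpholinos, and over the settings 1 to 4 of the list were lower and 0 to 1 higher. Against WIK 7 of the 22 fell and 0 rose with the her3 morpholino, where 14.5% of all genes were called, and with the mismatch morpholino 2 fell and 1 rose, where 10.5% were called. Over the settings the her3 morpholino counts ran from 0 to 7 lower and from 0 to 2 higher, and those of the mismatch morpholino from 0 to 4 lower and from 0 to 2 higher.

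Markers of the tail bud and presomitic mesoderm, where posterior Hox genes are expressed, moved with age and, at 24 hpf, with the knockout label. Of 10 tail bud and presomitic mesoderm genes 9 fell with age in the knockout line, and 8 fell and 1 rose in WIK, with summed levels of 21.5 to 22.4 CPM in the knockout line and 20.8 to 23.5 CPM in WIK at 72 hpf, against 151 to 177 CPM in the knockout line and 104 to 116 CPM in WIK at 24 hpf. No gene of the list averaged 0 in any group. At 24 hpf 6 of the 10 rose in the knockout line relative to WIK and 0 fell, with a median of 0.75, where 6.01% of all genes were higher. Among the 6, cdx4 is also in the retinoic acid and caudal list and FGF8 (ENSDARG00000003399) in the hindbrain list. tbx6, a presomitic mesoderm factor, averaged 24.4 ± 2.62 CPM in the knockout line, against 11.7 ± 2.10 CPM in WIK (1.04 ± 0.20, adjusted p = 0.0022), and msgn1, of the same tissue, averaged 19.2 ± 5.24 CPM, against 10.2 ± 1.63 CPM in WIK (0.86 ± 0.16, adjusted p = 0.0022). The count was 2 when the fit held just these 2 groups, 3 without replicate 1 of the knockout line and 6 without the 4 libraries that stood apart. Paralogues 9 to 13 had 11 positive and 12 negative differences in that same comparison, in the fit of all libraries. Their sums were 457, 471 and 452 CPM in the knockout line, against 556, 450 and 434 CPM in WIK. Replicate 1 of WIK, which stood apart, was the highest of its group for 18 of these 23 members, so the split of signs depends on that library. In it 0 of 6 somite and 0 of 8 spinal cord genes were called. Nor were any of the 7 pectoral fin bud and 4 tested median fin fold genes. Called were 1 of 12 hindbrain genes (FGF8, higher), 1 of 6 pharyngeal arch genes (lower) and 1 of 5 pronephros genes (higher). Of all genes 12.6% were called there. At 72 hpf 1 of the 10 tail bud genes was higher in the knockout line, where 10.8% of all genes were called.

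The other marker lists were read with age, where 37.1% of all genes were higher and 37.8% lower in the knockout line and 38.6% higher and 36% lower in WIK. Somite genes fell for 6 of 6 in the knockout line and 5 of 6 in WIK, with summed levels of 37.8 to 42.9 CPM in the knockout line and 40.8 to 46.5 CPM in WIK at 72 hpf, against 141 to 156 CPM in the knockout line and 129 to 144 CPM in WIK at 24 hpf. Pectoral fin bud genes fell for 4 and rose for 2 of 7 in each line, at 61.8 to 69.8 CPM in the knockout line and 69.7 to 76.2 CPM in WIK at 72 hpf, against 90.01 to 92.8 CPM in the knockout line and 89.7 to 103 CPM in WIK at 24 hpf. Hindbrain genes split, with 3 higher and 5 lower of 12 in the knockout line and 4 higher and 5 lower in WIK, and 4 of 8 spinal cord genes rose in each line. Pharyngeal arch genes fell for 5 and rose for 1 of 6 in each line. Of 4 tested median fin fold genes 3 rose in each line, and 1 fell in WIK. Pronephros genes rose for 4 and fell for 1 of 5 in each line. The part of these tissues' RNA in the Hox differences was not tested.

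In the comparison of the knockout line with WIK at 72 hpf, the median fin fold list summed to 493 to 631 CPM in the knockout line, against 674 to 741 CPM in WIK, and the pronephros list to 238 to 264 CPM, against 199 to 216 CPM in WIK. Called were 1 of 4 tested fin fold genes (and2, lower) and 1 of 5 pronephros genes (PAX2, ENSDARG00000028148, higher). Of all genes 10.8% were called. In the other direction went msx2b (0.02) of the fin fold list and CDH17 (-0.21) of the pronephros list. Tail bud, somite, spinal cord, pectoral fin bud and pharyngeal arch sums overlapped there. Hindbrain sums were 212 to 227 CPM in the knockout line, against 195 to 209 CPM in WIK, with 1 of 12 genes called. Of the injected groups against WIK at 24 hpf, somite genes summed to 91.1 to 123 CPM in the her3 morpholino group and 101 to 119 CPM in the mismatch morpholino group, against 129 to 144 CPM in WIK, and tail bud genes to 81.8 to 99.8 CPM in the her3 morpholino group and 87.2 to 107 CPM in the mismatch morpholino group, against 104 to 116 CPM in WIK. The tail bud sums of the mismatch morpholino group overlapped those of WIK. Of the tail bud genes 2 of 10 fell with the her3 morpholino and 0 of 10 were called by limma with the mismatch morpholino. Of the somite genes 2 of 6 fell with the her3 morpholino and 0 of 6 were called by limma with the mismatch morpholino. Of all genes 14.5% were called with the her3 morpholino and 10.5% with the mismatch morpholino. Median fin fold genes were higher, at 116 to 143 CPM in the her3 morpholino group and 117 to 130 CPM in the mismatch morpholino group, against 96.5 to 108 CPM in WIK, and 2 of 4 tested rose in each, beside the same shares of all genes. The part of these tissues' RNA in the lower Hox levels of the injected groups was not tested.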

How the data were processed

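Gene expression was read from 1 deposited table of read counts per 1000000 (CPM) for 25535 Ensembl genes in 18 libraries. Per the submitters' processing notes the authors used HISAT2 2.2.1, SAMtools 1.10, featureCounts 2.0.2 and edgeR 3.34.0 with the danRer11 genome. The sources used here do not give the strand setting or the treatment of multiply mapped reads. The deposited CPM values were whole multiples of 1 step in each library for 100% of values (tolerance 0.01 reads), which gave 14214136 to 23135995 reads a library. Library sums ran from 912145 to 1206849 CPM.

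Symbols were taken from a gene name table that named 23539 of the genes, and a and b copies from RefSeq gene names. The 20738 genes that reached 1 CPM in 3 or more libraries were tested, and 4797 were removed, with limma 3.58.1 in R 4.3.3, trended and robust, on log2(CPM + 0.5) over all 6 groups with 12 residual degrees of freedom. P-values were adjusted by the Benjamini-Hochberg method over all genes tested. The script was tested on simulated data. Tables and figures were made in Python 3.11.15 with pandas 2.3.3 and matplotlib 3.10.9. The alternatives were pseudocounts of 0.1 and 1, no filter, only the compared groups, a replicate block, CPM rescaled to equal library sums, limma's voom on recovered reads, 4 libraries left out and each library left out.

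The members and lists were chosen with earlier results of these data known. In each comparison called members are named, up to 12 a direction by size, with the 3 highest by mean CPM in each paralogue group and the 3 lowest by unadjusted p where fewer than 3 were called in the knockout and morpholino comparisons. Other members are named to fill in a paralogue number or a duplicate pair. Gene lengths and sequences were not used here.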

Additional observations from a re-analysis of the deposited data

How the results depend on the processing

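The number of members called between 72 and 24 hpf ranged from 37 to 40 in the knockout line and from 36 to 37 in WIK when 1 library was left out, and 34 of the 40 and 29 of the 39 calls held under every alternative. Without the 4 libraries that stood apart, 5 members were called between the knockout line and WIK at 24 hpf, 7 at 72 hpf, 11 between the morpholinos and 2 for the change of the knockout effect with age. When the fit held just the compared groups the counts were 6 for the knockout line at 72 hpf and 0 for each injected group against WIK. Rescaled CPM left 9 for the her3 morpholino and 7 for the mismatch morpholino against WIK. The share of all genes called is not given here for just the compared groups, rescaled CPM, the replicate block, voom or 1 library left out. The counts of those fits therefore cannot show a change particular to the Hox genes. Part of the changes between the morpholinos and between the knockout line and WIK follows from which libraries were left out. The cause of the other changes was not tested.

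With 1 library left out the counts ranged from 0 to 1 for the knockout line at 24 hpf, 0 to 2 at 72 hpf, 0 to 0 between the morpholinos, 5 to 31 for the her3 morpholino and 6 to 20 for the mismatch morpholino against WIK, and 0 to 1 for the change of the knockout effect. At 24 hpf the knockout count was 0 without replicate 1, 2 or 3 of the knockout line or replicate 2 of WIK. At 72 hpf it was 0 without replicate 1 of the knockout line or replicate 2 of WIK, and 1 without replicate 3 of the knockout line. The change of the knockout effect had 1 call without replicate 3 of WIK at 24 hpf.

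Replicate numbers were not treated as pairs in the main fit. The correlation of deviations between same-numbered libraries ran from -0.23 to 0.14 for the knockout line against WIK at 24 hpf, 0.06 to 0.24 at 72 hpf, 0.07 to 0.29 between the morpholinos, and -0.05 to 0.14 and -0.58 to 0.32 for the her3 and mismatch morpholinos against WIK. Between ages it ran from -0.08 to 0.11 in the knockout line and 0.005 to 0.27 in WIK. For differently numbered libraries the ranges were, in the same order, -0.27 to 0.31, -0.22 to 0.10, -0.27 to 0.07, -0.21 to 0.20 and -0.52 to 0.68. Between ages they were -0.18 to 0.15 in the knockout line and -0.27 to 0.16 in WIK. These values do not settle whether the numbers mark pairs. With the replicate block 1, 2, 0, 29 and 22 members were called in the first 5 of these comparisons, and 41 and 39 between ages.

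For single genes 925 values kept their side of the threshold, 124 lost a call and 5 gained one, and none changed sign while called. The quasi-likelihood test on recovered reads was not run, and limma's voom on those reads called 22 and 15 members for the her3 and mismatch morpholinos against WIK. Low counts limit hoxb1a and cdx4 at 72 hpf.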

Other observations

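Of 25 Polycomb and Trithorax genes, whose products keep Hox genes silent or active, 7 rose and 9 fell at 72 relative to 24 hpf in the knockout line, and 9 rose and 12 fell in WIK. That is 16 and 21 of 25 called, beside 74.9% and 74.5% of all genes. SUZ12 (-1.44 ± 0.07 in the knockout line and -1.497 ± 0.07 in WIK), EED (-1.31 ± 0.09 and -1.37 ± 0.09) and EZH2 (-0.94 ± 0.07 and -1.15 ± 0.07), the core of Polycomb repressive complex 2, fell, and kdm6bb, an H3K27 demethylase gene, rose (1.79 ± 0.11 and 1.62 ± 0.11). Between the knockout line and WIK 0 rose and 3 fell at 24 hpf, where 12.6% of all genes were called, among them BMI1 (ENSDARG00000013076), a subunit of Polycomb repressive complex 1 (-0.36 ± 0.08, adjusted p = 0.0050). At 72 hpf 4 rose and 1 fell, where 10.8% of all genes were called. JARID2 rose (0.91 ± 0.19, adjusted p = 0.0046), as did EZH2 (0.34 ± 0.07, adjusted p = 0.0036). Between the morpholinos 0 of the 25 were called by limma.

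Of 13 genes asked for that lie next to Hox clusters, 11 were tested. In the 4 comparisons within 24 hpf 0 were called by limma, and at 72 hpf 1 fell in the knockout line. With age 5 rose and 4 fell in the knockout line, and 6 rose and 4 fell in WIK, beside the same shares of all genes.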
